A study of Mus musculus with 82 samples.

Results

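Tissue of the suprachiasmatic nucleus (SCN), the circadian clock centre of the hypothalamus, was sampled by laser capture as 82 hexagons of a grid, and 10 immediate early genes were followed through them: Fos, Fosb, Fosl2, Jun, Junb, Egr1, Nr4a1, Dusp1, Ier2 and Btg2. They were taken by symbol, 10 of the 27515 genes counted. All hexagons came from C57BL/6 mice aged 8 weeks, group-housed with food and water freely available, and the labels name no treatment, animal, sex, lighting or time of collection. Hexagons had a largest radius of 40 µm, were cut from sections stained with cresyl violet, and were sequenced as Smart-seq2 libraries. They lay at 9 anterior-posterior coordinates, which are called sections 1 to 9 from the lowest value and held 4, 6, 12, 14, 12, 14, 13, 6 and 1 hexagons. The labels give no unit for the coordinates and do not say which end of an axis is which. Since several hexagons can come from 1 animal, every p-value over hexagons below is smaller than it should be and refers to the spread among these hexagons alone.

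Immediate early genes are transcribed within minutes of a stimulus, without new protein synthesis, through transcription factors already present in the cell such as phosphorylated CREB and serum response factor. Most of them encode transcription factors or feedback regulators. Fos, Fosb and Fosl2 dimerise with Jun or Junb into AP-1. Egr1 is a zinc finger factor and Nr4a1 an orphan nuclear receptor. Dusp1 is a phosphatase that switches off MAP kinases, Btg2 is an antiproliferative regulator of mRNA decay, and Ier2 is a small nuclear protein. In the SCN these genes are known for their induction by light during the night and, in part of the nucleus, for daily rhythms.

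The promoters of Fos, Dusp1, Nr4a1 and Btg2 are shown because the pairs Fos with Dusp1 and Nr4a1 with Btg2 had the highest correlation across hexagons among the 10 genes. Each runs from 250 bases before to 50 bases after the annotated start, 5′ to 3′ on the gene's strand, from RefSeq on GRCm38.p6. Capitals mark TGACG, the core of the cAMP response element (CRE) that CREB binds, on either strand (CGTCA on the other), and the whole palindrome TGACGTCA where it stands. Fos lies at chr12:85473640-85473939 (+), Dusp1 at chr17:26508423-26508722 (-), Nr4a1 at chr15:101266596-101266895 (+) and Btg2 at chr1:134079106-134079405 (-).
Fos: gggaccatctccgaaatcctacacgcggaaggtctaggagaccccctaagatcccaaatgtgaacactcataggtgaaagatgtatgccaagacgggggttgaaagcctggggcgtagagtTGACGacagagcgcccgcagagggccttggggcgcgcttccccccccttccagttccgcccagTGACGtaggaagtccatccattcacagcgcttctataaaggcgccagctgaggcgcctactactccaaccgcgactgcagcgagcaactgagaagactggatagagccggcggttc
Dusp1: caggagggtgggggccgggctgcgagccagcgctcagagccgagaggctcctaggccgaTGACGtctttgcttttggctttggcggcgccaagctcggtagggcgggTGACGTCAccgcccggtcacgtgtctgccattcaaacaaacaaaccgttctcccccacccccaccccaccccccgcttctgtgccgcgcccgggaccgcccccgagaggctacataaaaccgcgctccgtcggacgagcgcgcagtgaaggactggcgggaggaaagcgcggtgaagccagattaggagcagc
Nr4a1: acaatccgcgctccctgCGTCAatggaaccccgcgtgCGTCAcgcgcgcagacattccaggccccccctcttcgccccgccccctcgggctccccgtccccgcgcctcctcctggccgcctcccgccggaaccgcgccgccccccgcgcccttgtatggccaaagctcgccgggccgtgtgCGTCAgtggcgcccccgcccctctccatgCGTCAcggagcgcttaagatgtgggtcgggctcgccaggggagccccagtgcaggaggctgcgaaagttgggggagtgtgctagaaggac
Btg2: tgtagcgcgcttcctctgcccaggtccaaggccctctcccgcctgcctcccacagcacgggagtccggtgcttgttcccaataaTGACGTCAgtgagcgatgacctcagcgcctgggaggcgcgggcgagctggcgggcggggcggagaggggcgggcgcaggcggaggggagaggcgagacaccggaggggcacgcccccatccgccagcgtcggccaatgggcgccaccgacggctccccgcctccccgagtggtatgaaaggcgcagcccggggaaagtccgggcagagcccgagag
Of the 10 genes, 8 had a promoter in the table. The palindrome TGACGTCA stood in 2 of the 8, Btg2 and Dusp1, against 1.79% of 32851 mouse promoters of this length. It lies 143 bases before the start in Dusp1 and 166 before it in Btg2. The core TGACG, which is part of the palindrome, stood in 6 of the 8, namely Btg2, Dusp1, Fos, Fosb, Junb and Nr4a1, against 20.8% of all promoters. In Fos the cores begin 129 and 66 bases before the start and a TATAAA begins 33 bases before it. The EGR motif GCGNGGGCG stood in Btg2, Fosb, Fosl2 and Nr4a1, against 5.55% of all promoters. The AP-1 motif TGANTCA stood in 0 of the 8, against 7.81% of all promoters, and so few windows cannot tell these shares apart. All motifs were searched on both strands, and a match is a description of letters and not a bound site.

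Library totals spanned 11905 to 2843366 counts, with a median of 542267.5. In 5 libraries, called low-depth, the total lay below the median divided by 3, and the shallowest, replicate 4 of section 4, held 2549 detected genes and 1 of the 10 immediate early genes. All 12 SCN neuron markers examined were detected, with a summed level of 558 to 21850 CPM (counts scaled to the library total) per hexagon. One hexagon stood apart for the genes described here. Replicate 13 of section 7 (medial-lateral 1406, dorsal-ventral 579) had 1800916 counts and the highest level of 4 of the 10 genes among all 82 hexagons. It held 216 CPM of Fos, 156 CPM of Egr1, 267 CPM of Nr4a1 and 31.6 CPM of Junb, against medians of 36.8, 10.7, 37.9 and 4.35 CPM over all hexagons. Fosb ranked 2nd there with 38.1 CPM (median 0). Fosl2, Jun, Ier2 and Btg2 were below their medians there, with 35.2, 7.75, 3.58 and 26.2 CPM against medians of 78.8, 16.04, 5.36 and 51.9 CPM. Egr3, another zinc finger immediate early gene, ranked 3rd highest there with 36.9 CPM, and Npas4, a neuronal activity-dependent factor, ranked 2nd with 16.1 CPM. Further genes of the class were not high there: Jund ranked 24th with 14.9 CPM, Arc 55th with 1.19 CPM and Nr4a3 56th with 16.7 CPM, and Nr4a2 had no count. The same hexagon ranked 80th of 82 for summed SCN neuron markers (936 CPM, median 4348) and 81st for Six6, a homeobox gene of the SCN (7.15 CPM, median 124). It ranked highest for the general neuron markers (8414 CPM, median 5723).

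The levels of the 10 genes differed widely when compared per length, as RPKM, reads scaled to gene length and library total. Dusp1 had the highest median over the 82 hexagons, 28.6 RPKM, with a range of 0 to 126. Btg2 followed with a median of 18.3 and Fos with 15.7 RPKM. These neighbours in the order did not differ beyond their spread: Btg2 exceeded Fos in 42 hexagons and Fos exceeded Btg2 in 38. Nr4a1 had a median of 10.7, Fosl2 of 8.09, Jun of 5.09, Ier2 of 3.41, Egr1 of 2.35 and Junb of 1.84 RPKM. Each of these neighbouring pairs also crossed in many hexagons, from 22 of 82 for Nr4a1 above Fos to 34 of 82 for Ier2 above Jun. Fosb was the lowest, with a median of 0. It was detected in 22 of 82 hexagons, with 187 counts in all, and reached 9.10 RPKM in replicate 7 of section 5. For every neighbouring pair the median difference within a hexagon was below the SD of that difference, as for Btg2 over Fos with 1.06 RPKM against an SD of 20.3. The order of the medians was the same without the 5 low-depth libraries and without replicate 13 of section 7.

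Detection was otherwise broad. Dusp1 was counted in 81 hexagons, Fosl2 in 80, Jun and Nr4a1 in 77, Btg2 in 75 and Fos in 74. Egr1 and Ier2 were counted in 70 hexagons and Junb in 63. A count of 0 still allows up to 3 counts. For Fos this limit ran from 2.67 to 98.4 CPM over the 8 hexagons with none, and the deepest of them held 1178126 counts. Fos was therefore at or below 2.67 CPM in one well-sequenced hexagon while it exceeded 100 CPM in others. In pieces of tissue, fewer cells of a type and less RNA per cell cannot be told apart.

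Scatter between hexagons, after section and coordinates were fitted, differed between the genes. The biological coefficient of variation was 1.02 for Fos, 1.00 for Egr1, 0.94 for Nr4a1, 0.92 for Junb, 0.86 for Btg2 and 0.85 for Ier2, against a median of 0.68 over 11469 tested genes. Dusp1 (0.59), Fosl2 (0.66) and Jun (0.69) lay near or below that median. Set against the fitted trend for genes of like expression, 5 of the 9 lay above it, Fos (trend 0.63), Nr4a1 (0.67), Btg2 (0.60), Dusp1 (0.49) and Fosl2 (0.50). The other 4 lay below it, Junb (1.45), Ier2 (1.39), Egr1 (1.08) and Jun (1.02).

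The members lie on 9 chromosomes, in GENCODE M21 on GRCm38. Fos is at chr12:85473890-85477273, Fosb at chr7:19302696-19310051 and Fosl2 at chr5:32135801-32157842. Jun is at chr4:95049034-95052222, Junb at chr8:84974484-84978718 and Ier2 at chr8:84661331-84662852. Egr1 is at chr18:34859823-34864984, Nr4a1 at chr15:101254269-101274795, Dusp1 at chr17:26505590-26562128 and Btg2 at chr1:134075170-134079120. Exons of Jun, Junb and Dusp1 overlap a gene on the other strand, Junos, Prdx2 and Ergic1, so that without a known strand setting some of their reads cannot be assigned with certainty.

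**Figure D1:**
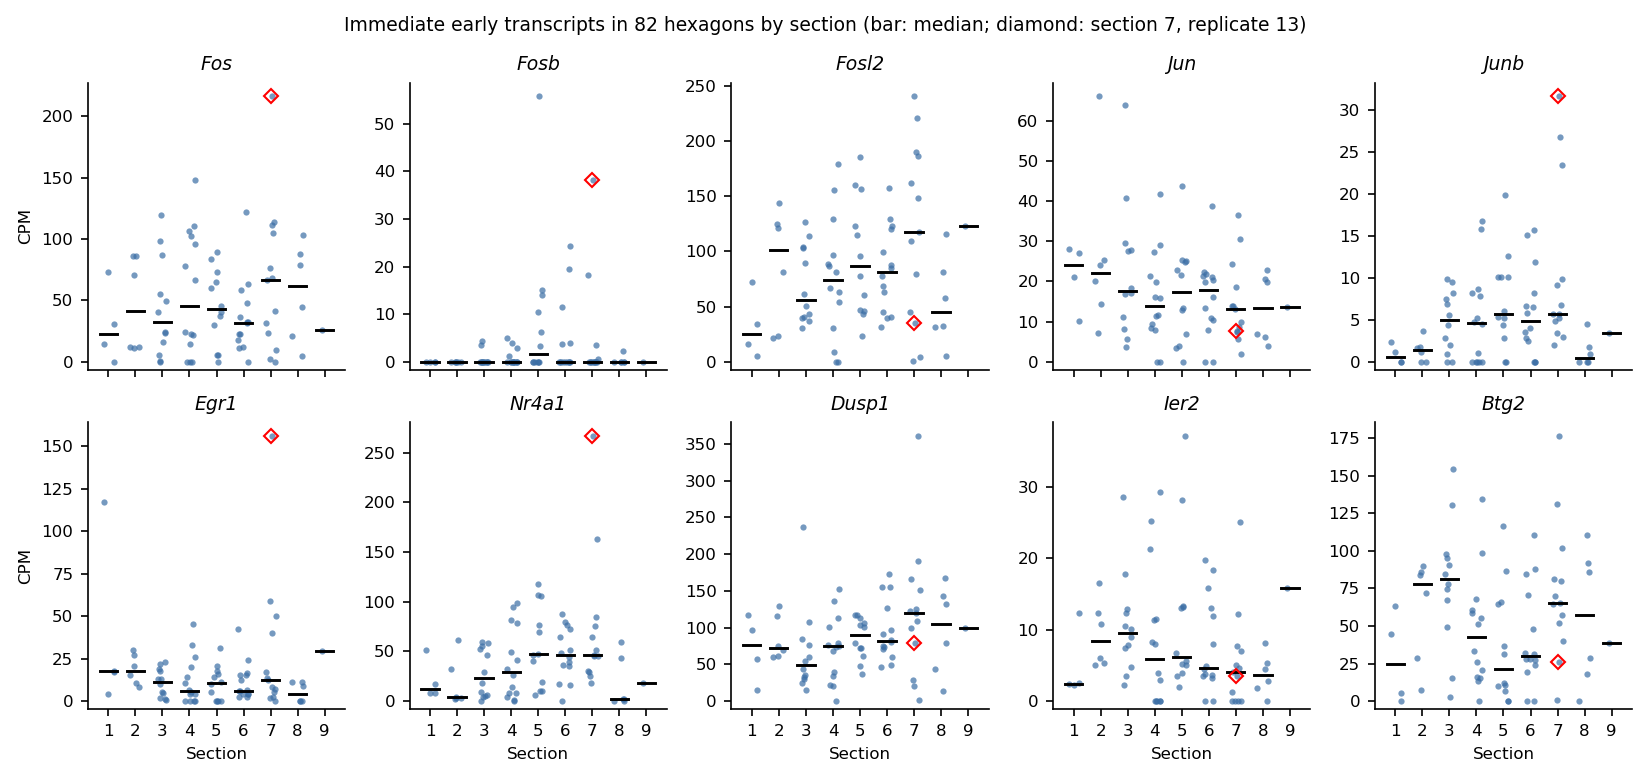
Levels of the 10 genes in CPM (y axis, linear, a scale per gene) in each hexagon (points) of sections 1 to 9 (x axis), with the section median as a bar and replicate 13 of section 7 as a diamond. Sections 1 to 8 overlap for Fos and Dusp1, the highest points of Nr4a1 and Junb lie in section 7, and Fosb is at 0 in all hexagons of sections 1, 2 and 9.

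Along the anterior-posterior coordinate none of the 10 genes passed the test of a slope. The lowest unadjusted p-values were those of Jun and Dusp1, and Nr4a1 had low sums at both ends of the axis. Summed over the hexagons of a section, Nr4a1 had 17.6, 11.8, 25.6, 39.0, 51.9, 52.4, 65.5 and 12.3 CPM in sections 1 to 8. The highest value is that of section 7, and section 8 lies between sections 1 and 2. Replicate 13 alone holds 448 of the 1131 Nr4a1 counts of section 7, and without it the sum is 44.1 CPM, below those of sections 5 and 6. The slope of Nr4a1 was 0.46 log2 units per 100 coordinate units (standard error 0.25, edgeR adjusted p = 0.386), 0.34 without replicate 13 of section 7 (edgeR adjusted p = 0.529), and without section 8 it was 0.80 (adjusted p = 0.0341, with 0.558% of 13076 genes called in that fit). Over all 16 alternatives its adjusted p ranged from 0.0341 to 0.9995. Jun had 20.7, 26.9, 21.2, 15.99, 16.4, 17.2, 12.5 and 10.3 CPM in sections 1 to 8, so that the highest sums lay in sections 1 to 3 and the lowest in sections 7 and 8. Its slope was -0.34 (standard error 0.14, edgeR adjusted p = 0.242), and every alternative gave a negative slope, from -0.42 to -0.26. Dusp1 had 75.2, 76.6, 65.8, 74.1, 89.3, 100.5, 129.5 and 87.3 CPM in these sections (slope 0.20, standard error 0.08, edgeR adjusted p = 0.256).

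Over the 8 section sums, 0 of the 10 genes passed an adjusted p of 0.05 in edgeR's quasi-likelihood test, where 0.226% of 13268 genes did, and 0 passed in DESeq2. An unadjusted p under 0.05 was found for 2 of 10, Dusp1 and Jun, against 15.6% of all genes. The median slope of the 10 was 0.18, against 0.0065 over all genes tested. Sections differ in library set, as the letter that opens each description label is read here, and sections 1, 2, 3 and 8 each hold a single set. Set and section therefore cannot be told apart at either end of the axis. With the mean dorsal-ventral and medial-lateral coordinates of each section in the fit, no gene of 13268 passed, and the slopes of Btg2, Egr1 and Fosl2 changed sign.

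The slopes of other members did not pass either. Fos had medians of 22.4, 41.3, 32.5, 45.6, 42.8, 31.7, 66.4 and 61.6 CPM in sections 1 to 8, with single hexagons from 0 to 148 CPM in section 4 alone. Over the section sums the slope of Fos was 0.19 (standard error 0.09, edgeR adjusted p = 0.344). Under all 16 alternatives it was positive, from 0.12 to 0.22. Fosl2 had medians of 25.4, 101.6, 55.7, 74.1, 86.9, 81.2, 117.8 and 45.1 CPM, Egr1 of 17.6, 17.8, 11.4, 6.02, 10.6, 6.13, 12.4 and 4.30 CPM, and Btg2 of 24.8, 78.2, 81.3, 42.4, 21.6, 29.9, 65.6 and 57.4 CPM. Btg2 had its lowest median in section 5. Nr4a1 medians were nearly level in sections 5, 6 and 7, with 47.2, 46.2 and 46.3 CPM. The ranges of sections 1 to 8 overlap for each of these genes.

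Between sections, tested over 81 hexagons with no line assumed, 0 of 9 genes passed (edgeR, 4.1% of 11469 genes did), and 0 passed in DESeq2. Junb came nearest (adjusted p = 0.162) and Nr4a1 followed (adjusted p = 0.243), and these were the 2 of 9 genes with an unadjusted p under 0.05, against 15.3% of all genes. Without replicate 13 of section 7 the unadjusted p of Nr4a1 was 0.0877 in edgeR, and Junb was not tested because too few libraries were left with 10 counts. Junb medians were 0.55, 1.44, 4.95, 4.61, 5.62, 4.86, 5.70 and 0.48 CPM in sections 1 to 8. Sections 1, 2 and 8, at the ends of the axis, had the low medians. The highest hexagon of section 8 had 4.53 CPM of Junb and that of section 7 had 31.6 CPM, and the sections overlap. Junb counts were few, 2 in section 1, 4 in section 2 and 5 in section 8, so these medians rest on little.

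Fosb, the partner of Jun whose stable splice form accumulates with repeated activity, had most of its counts in sections 5 to 7. It had 0 counts in sections 1, 2 and 9, 11 in section 3, 7 in section 4, 40 in section 5, 32 in section 6, 96 in section 7 and 1 in section 8. Of the 96 counts in section 7, 64 were in replicate 13, without which the section had 32 counts and 2.06 CPM. Section 7 also had the most counts in all (17639264), and as CPM the section sums were 0.74, 1.10, 8.65, 5.61, 5.56 and 0.21 in sections 3 to 8. Fosb had 10 or more counts in only 6 hexagons and was not tested over hexagons with the filter on low counts. Without that filter its adjusted p was 0.00302 between sections and 0.0311 over the 5 position terms described below. In those fits 21.7% and 16.5% of 21396 genes were called, so that a call there says little about Fosb. Over the section sums its slope was 1.57 (standard error 0.78, edgeR adjusted p = 0.346).

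**Figure D2:**
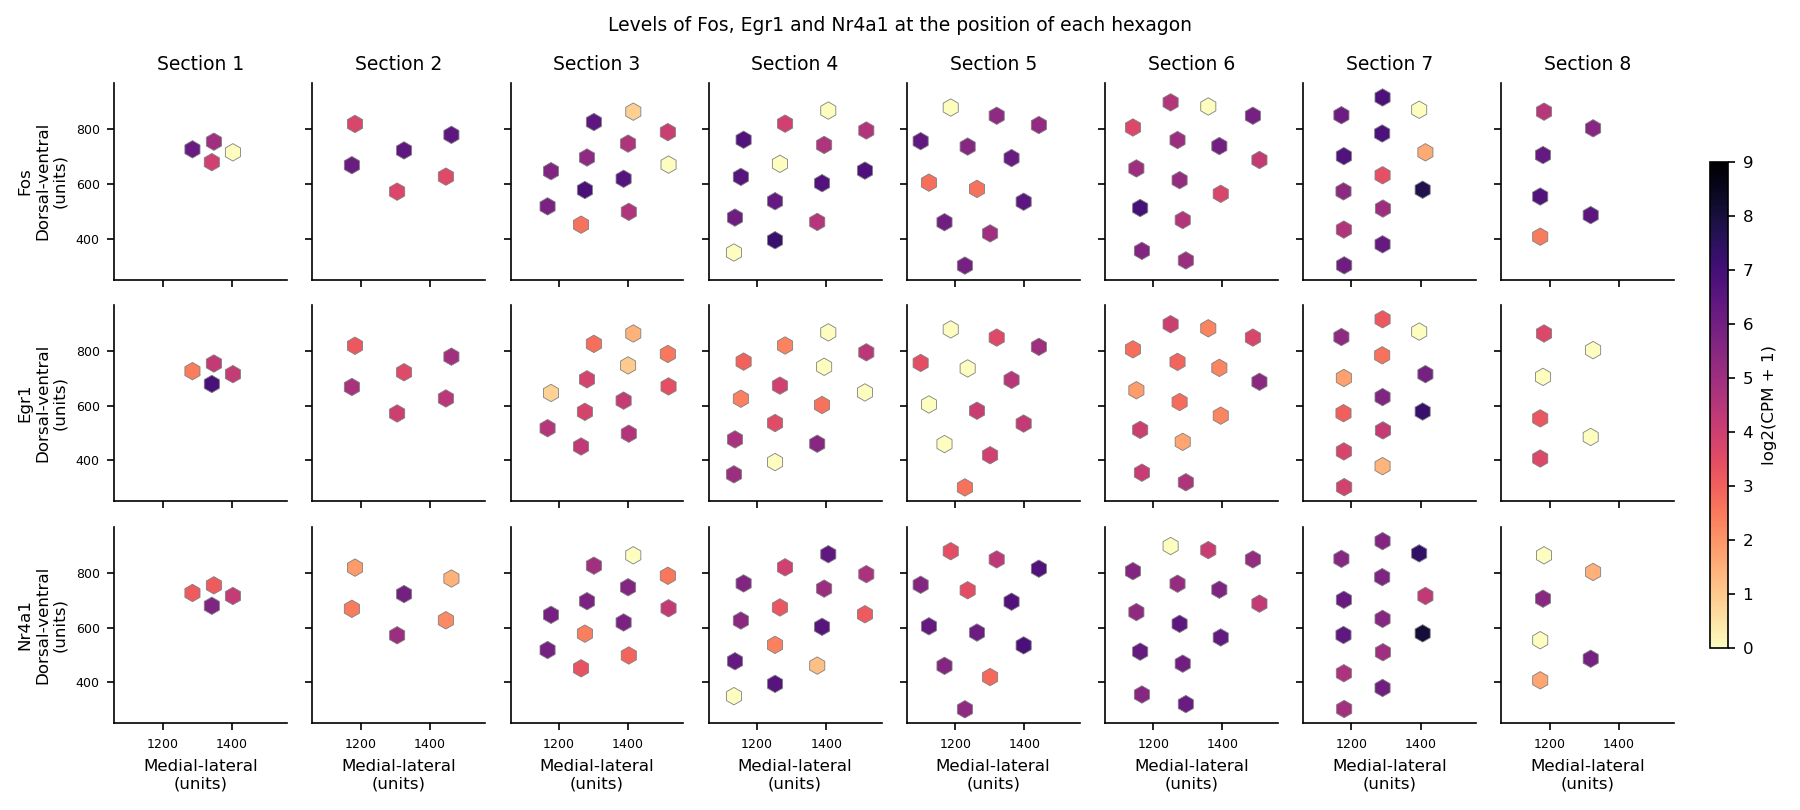
Level of Fos, Egr1 and Nr4a1 (rows) as log2(CPM + 1) in colour at the medial-lateral (x axis) and dorsal-ventral (y axis) coordinate, in units of the labels, of each hexagon of sections 1 to 8 (columns). High and low hexagons lie side by side for each gene, and the darkest symbol for all 3 genes is the same hexagon of section 7.

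Within sections, no immediate early gene followed the dorsal-ventral coordinate past the threshold (0 of 9 in edgeR, where 0.793% of 11469 genes passed, and 0 in DESeq2). Slopes were negative for 7 of the 9, with a median of -0.10 against 0.0026 over all genes. Btg2 and Egr1 had an unadjusted p under 0.05, 2 of 9 against 8.46% of all genes. In the hexagons of low, middle and high dorsal-ventral coordinate (301 to 578, 579 to 739 and 743 to 917, n = 27, 28 and 27), Btg2 averaged 67.8 ± 37.6, 42.9 ± 35.7 and 51.8 ± 45.5 CPM (SD). The SDs exceed the differences between the 3 groups. Its slope was -0.21 (standard error 0.10, edgeR adjusted p = 0.503). Egr1 had medians of 13.7, 11.9 and 6.503 CPM in these 3 groups, and its slope, fitted within each section alone, was negative in 8 of 8 sections. In the fit over all hexagons it was -0.27 (standard error 0.13, edgeR adjusted p = 0.579). Without replicate 13 of section 7 it was -0.22, with an unadjusted edgeR p of 0.0982.

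Along the medial-lateral coordinate, 0 of 9 genes passed either, in edgeR (1.38% of 11469 genes did) and in DESeq2. Fosl2, a Fos family member, had the smallest p. It had medians of 109, 67.7 and 46.7 CPM in hexagons of low, middle and high medial-lateral coordinate (1100 to 1228, 1236 to 1342 and 1348 to 1517, n = 27, 28 and 27). Its slope was -0.27 (standard error 0.12, edgeR adjusted p = 0.303), negative in 7 of 8 sections and between -0.33 and -0.21 under all 17 alternatives. The ranges of the 3 groups overlap, reaching 221, 241 and 185 CPM. Egr1 did not pass and had medians of 8.61, 10.7 and 17.2 CPM and a slope of 0.34 (standard error 0.18, edgeR adjusted p = 0.456), which was 0.25 without replicate 13 of section 7. The median slope of the 9 genes was -0.08, against -0.0044 over all genes, and 1 of 9 had an unadjusted p under 0.05 against 11.7% of all genes.

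**Figure D3:**
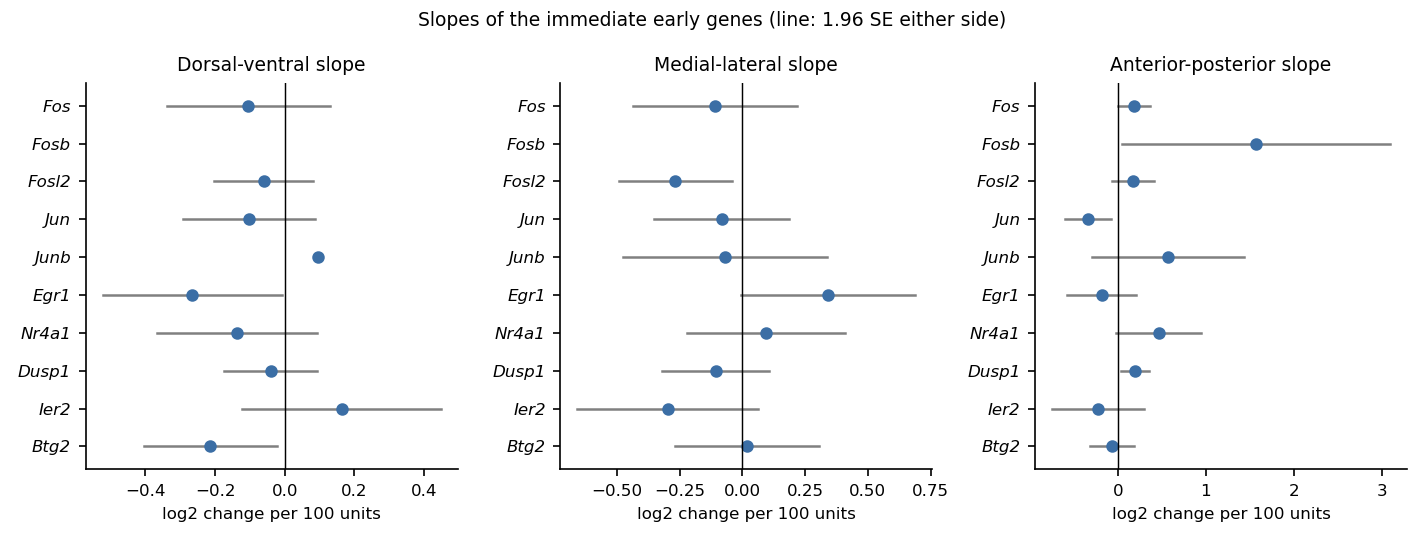
Slopes of the 10 genes as log2 change per 100 coordinate units (x axis) along the 3 axes (panels), each with a line for its normal 95% interval. Fosb has no slope within sections and Junb no error on the dorsal-ventral axis, and the adjusted p of every slope drawn lies above 0.05.

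A test of 5 position terms together, both coordinates, their squares and their product, looks for a peak or trough inside a section. There 0 of 9 genes passed and 0 had an unadjusted p under 0.05 (edgeR, 2.03% of 11469 genes passed, with 10.7% under the unadjusted value), and 0 passed in DESeq2. Ier2 came nearest (adjusted p = 0.587). Library sets within sections did not separate the genes either: 0 of 9 passed (edgeR, 0.0262% of 11469 genes), 0 had an unadjusted p under 0.05 against 3.65% of all genes, and 0 passed in DESeq2.

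Some of the other immediate early genes passed a test of position. Of 56 further genes of this class, 27 were tested over hexagons and 44 over section sums. An unadjusted edgeR p under 0.05 was found for 9 of 27 on the medial-lateral axis (11.7% of all genes) and 9 of 27 over the 5 position terms (10.7%). It was found for 4 of 27 on the dorsal-ventral axis (8.46%) and 11 of 44 on the anterior-posterior axis (15.6%). Between sections there were 5 of 27 (15.3%), and between library sets 0 of 27 (3.65%). On the medial-lateral axis 2 of the 27 passed, where 1.38% of all genes did, and both fell: Per1, the clock repressor that light induces (slope -0.34, standard error 0.06, edgeR adjusted p = 8.64e-04), and Crem, the CREB-family gene that encodes the repressor ICER (slope -0.38, standard error 0.09, edgeR adjusted p = 0.0137). With library set as a further factor the edgeR adjusted p was 0.0775 for Per1 and 0.127 for Crem, and without section 3 the call of Crem was lost as well. Plk2, an activity-induced kinase of synapses, rose along the anterior-posterior axis (slope 0.56, standard error 0.10, edgeR adjusted p = 0.0418, 1 of 44 tested, where 0.226% of all genes passed), a call lost in 9 alternatives, among them those without section 1, 2, 3, 4, 6 or 7. Nr4a3, a close relative of Nr4a1, and Rasd1, a small GTPase of the SCN light response, differed between sections (edgeR adjusted p = 0.0204 and 0.0376, 2 of 27, where 4.1% of all genes passed), and adding library set as a factor, or leaving out section 2 or 5, ended both calls. That of Nr4a3 was also lost without section 6, and that of Rasd1 without section 3 or 7 or without replicate 13 of section 7. None of the 27 passed on the dorsal-ventral axis, and Per1 passed over the 5 position terms (edgeR adjusted p = 0.0057). That call did not hold in every alternative, where the adjusted p reached 0.193 over 17 fits in edgeR and DESeq2. The AP-1 partners of other families, of which 6 of 14 were tested over hexagons, passed in no comparison.

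Among 39 signalling genes upstream of this class, 38 were tested over hexagons. Mkl2, a coactivator of serum response factor, rose with the dorsal-ventral coordinate (slope 0.17, standard error 0.03, edgeR adjusted p = 2.43e-05) and fell with the medial-lateral one (slope -0.21, standard error 0.04, edgeR adjusted p = 0.00213). Mef2c, an activity-regulated transcription factor, fell with the dorsal-ventral coordinate (slope -0.34, standard error 0.08, edgeR adjusted p = 0.00986). Rps6ka2, a ribosomal S6 kinase below ERK, fell with the medial-lateral coordinate (slope -0.32, standard error 0.07, edgeR adjusted p = 0.00921), and Calm2, a calmodulin gene, rose with it (slope 0.09, standard error 0.03, edgeR adjusted p = 0.0322). Crem belongs to this list as well. These are 2 of 38 on the dorsal-ventral axis (0.793% of all genes), 4 of 38 on the medial-lateral axis (1.38% of all genes) and, of 39, 0 on the anterior-posterior axis (0.226% of all genes). Mkl2, Rps6ka2 and Mef2c also passed over the 5 position terms. Over 17 alternatives in edgeR and DESeq2 the adjusted p there reached 0.0082 for Mkl2, 0.34 for Rps6ka2 and 0.38 for Mef2c. Only the call of Mkl2 thus held in all of them. Calm2, Ep300, Map2k2 and Mef2c passed between sections, and none of these section calls held once library set was added. Without section 5 or 7 the slope calls of Mef2c, Rps6ka2 and Calm2 were lost. That of Rps6ka2 was also lost without section 6, and that of Calm2 without section 1, 3 or 6 or without the low-depth libraries. With library set as a further factor the calls of Mkl2, Rps6ka2 and Calm2 on the medial-lateral axis were lost. Calm2 has near copies in the genome, so its counts are uncertain.

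The 10 genes were weakly correlated from hexagon to hexagon. After section means were removed, the 45 pairs among them had Pearson r of log2(CPM + 1) from -0.26 to 0.44 over 81 hexagons, with a median of 0.123, and 31 were positive. Over all pairs of 8171 genes with a mean CPM of 20 or more the median was 0.165. Fosb, Junb, Ier2, Egr1 and Jun had means of 3.06, 5.59, 8.31, 15.7 and 17.7 CPM, below that cut. The members and all pairs thus differ in depth, and what low counts did to r was not tested. Without the 5 low-depth libraries (n = 76) the median was 0.12 for the 45 pairs and 0.016 over all pairs, and 3 of the 45, or 6.67%, lay above the 95th percentile of all pairs, against 0 of the 45 over 81 hexagons. All hexagons of a comparison share the libraries and their depth, so these values describe the samples and carry no p.

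The highest r joined Fos with Dusp1, the MAP kinase phosphatase (0.44, and 0.37 without the low-depth libraries). Nr4a1 with Btg2 followed (0.41 and 0.35), then Fosl2 with Dusp1 (0.38 and 0.25) and Fos with Fosl2 (0.32 and 0.34). Fos and Nr4a1 stood at 0.29 and 0.25. Within AP-1, r was low or negative for other pairs: Fos with Fosb had -0.11 and -0.12, Fos with Jun 0.20 and 0.13, and Jun with Junb -0.20 and -0.27. The lowest r of the 45 was that of Fosb with Btg2, -0.26 and -0.29. Egr1 had a median r of -0.08 with the other 9 genes. Its r was 0.06 with Fos and -0.18 with Nr4a1, although the hexagon with the highest level of each of these 3 genes is the same one. Without that hexagon Egr1 had an r of -0.24 with Nr4a1.

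**Figure D4:**
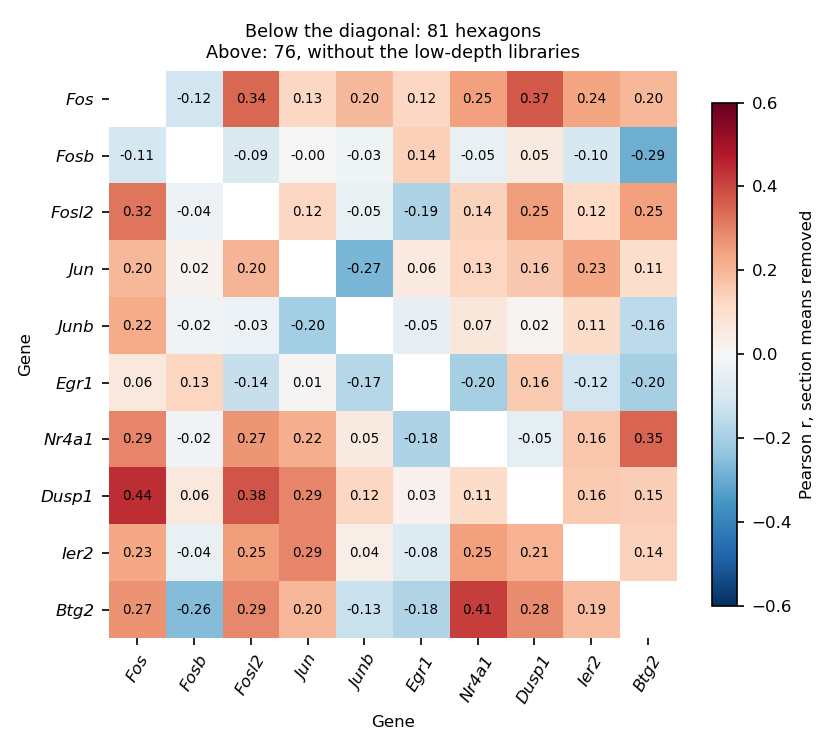
Pearson r of log2(CPM + 1) between pairs of the 10 genes (both axes) with section means removed, over 81 hexagons below the diagonal and over 76 above it, in colour and as numbers. Fos, Fosl2, Jun, Nr4a1, Dusp1, Ier2 and Btg2 have positive r with each other in 81 hexagons, while the values of Fosb, Junb and Egr1 scatter around 0. Fosb, Junb and Egr1, like Jun and Ier2, had a mean below 20 CPM. In 76 hexagons Nr4a1 with Dusp1 has an r of -0.05.

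For each member, the 3 most alike of 8170 or 8171 genes were taken by r with section means removed. Being the highest of that many, these r are high by selection and are a description. Fosl2 was most like Per1, with an r of 0.71 over 81 hexagons, 0.59 without the low-depth libraries, 0.60 as Spearman's rho and between 0.60 and 0.73 with any section left out. Per1 was also its most alike gene in the 76 deeper hexagons and with genes detected and total counts removed. In the 4 hexagons with the most Fosl2, all in section 7, Fosl2 stood at 241, 221, 190.2 and 187 CPM and Per1 at 194, 262, 262 and 323 CPM, against a Per1 median of 143 CPM. The fifth hexagon, replicate 11 of section 5, had 185 CPM of Fosl2 and 104 CPM of Per1. Pnp, a purine nucleoside phosphorylase with a near copy in the genome, and Hnrnpul1, an RNA-binding protein, came next for Fosl2 (r of 0.69 and 0.66, and 0.58 and 0.37 without the low-depth libraries).

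Fos was most like Med13, a subunit of the Mediator kinase module (0.63, and 0.59 without the low-depth libraries). Sik1, the CREB-induced kinase that limits clock resetting by light, followed (0.60 and 0.58), and then Avp, the neuropeptide vasopressin of the SCN shell (0.59 and 0.55). Btg2 was most like Avp (0.63 and 0.59), followed by Cck, another neuropeptide (0.60 and 0.53), and Nsmf, a synapse-to-nucleus messenger (0.57 and 0.52). These r were not those of replicate 13 of section 7, which held the most Fos but only 69.1 CPM of Avp, ranking 67th, and 49.4 CPM of Sik1, ranking 76th. Without it Fos had an r of 0.62 with Sik1 and 0.60 with Avp.

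Fosb was most like Ppfia2, a scaffold protein of the presynaptic active zone (0.50, and 0.52 without the low-depth libraries), and Grp, the gastrin-releasing peptide of SCN core neurons that receive retinal input (0.48 and 0.51), followed by Syt5, a synaptotagmin (0.44 both times). The 5 hexagons with the most Fosb had 55.8, 38.1, 24.3, 19.5 and 18.2 CPM of Fosb and 178, 78.6, 215, 382 and 300.1 CPM of Grp. All 5 lie above the Grp median of 10.7 CPM, and the fourth holds the highest Grp level of the 82. These 5 hexagons lie in sections 5 to 7, and the median is over all sections, with Grp at 0 in 30 hexagons. That comparison therefore includes differences between sections. Fosb had an r of -0.27 with Avp. Fos had an r of -0.20 with Grp.

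**Figure D5:**
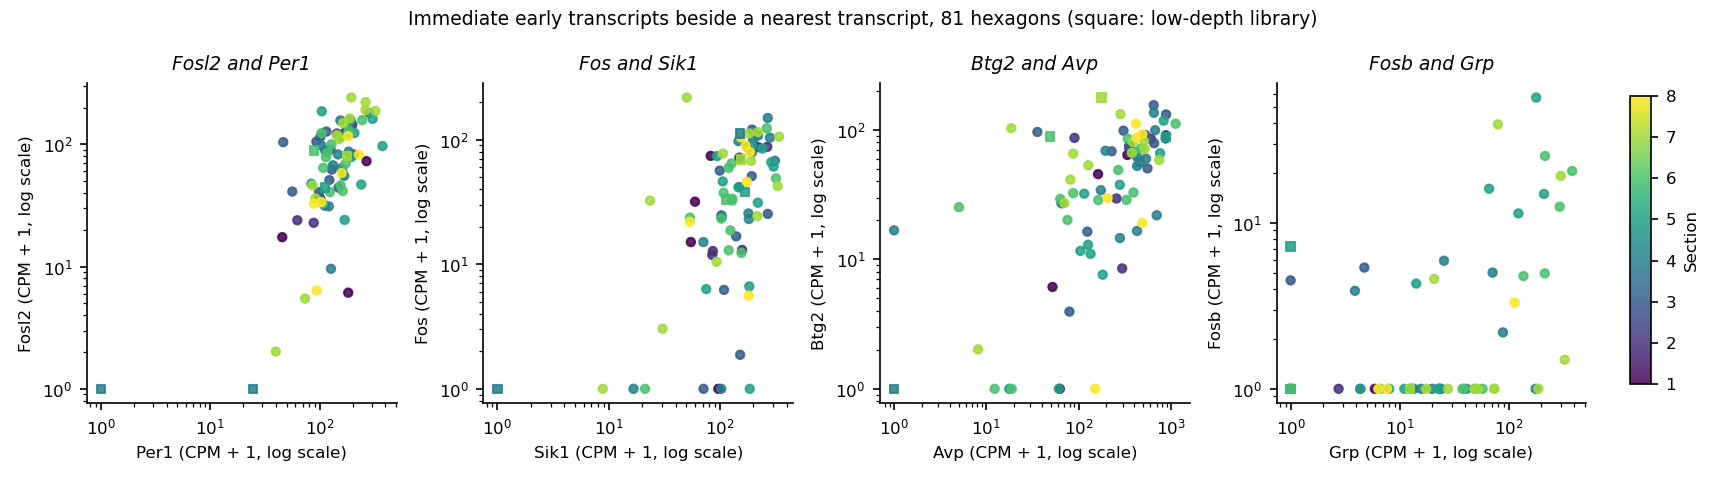
Level of 4 members (y axes) against that of a gene most like them (x axes) in 81 hexagons, as CPM + 1 on log scales, coloured by section, with squares for the low-depth libraries. Fosl2 and Per1, Fos and Sik1, and Btg2 and Avp are low together in the shallowest library. Fosb is at 0 in many hexagons, of which the richest in Grp has 186 CPM. By that choice of cut Fosb is above 0 in the 7 hexagons with more Grp. Among these, replicate 11 of section 6 and replicate 8 of section 7 hold 1 count of Fosb each.

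Dusp1 was most like Spint2, a protease inhibitor, Papola, a poly(A) polymerase, and Tmed7, a secretory pathway protein, with r from 0.74 to 0.77. Of all members it also followed library quality most: its r was 0.67 with log2 genes detected (median over genes 0.43) and -0.61 with the percentage of mitochondrial counts (median -0.40). With genes detected and total counts removed, its r was 0.51 with Spint2 and 0.28 with Fos. Jun was most like Ccp110, Mturn and Elp3 (0.50 each), Junb like Pi4kb, March1 and Mccc2 (0.41 to 0.47), and Ier2 like Relt, Prr5l and Lsm3 (0.49 to 0.51). Nr4a1 was most like Pcdhgb4, Trappc1 and Ilkap (0.49 to 0.51). Pcdhgb4 shares exons with other genes of its cluster, so its counts are uncertain.

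Egr1 was lower where the summed CPM of the SCN neuron markers was higher. Its r with their summed CPM was -0.44, where the 5th percentile of 8171 genes was -0.16. The next lowest member was Jun with -0.04, and with -0.16 without the low-depth libraries and -0.21 with genes detected and total counts removed. For Egr1 it was -0.49 as Spearman's rho, -0.43 without the low-depth libraries and -0.36 without replicates 12 and 13 of section 7. These 2 hexagons held 59.1 and 156 CPM of Egr1 with 12.2 and 7.15 CPM of Six6. With Six6 alone its r was -0.19. For the peptide genes of the list it was -0.38 with Prok2, -0.27 with Vip, -0.25 with Nms, -0.08 with Grp and -0.07 with Avp. Vip, with a mean of 1779 CPM against 326 CPM for Avp, weighs heavily in the sum, so the sum does not stand for each marker. The r of Egr1 with the general neuron markers was 0.17, below the median of 0.22 over all 8171 genes. That with astrocyte markers was -0.12, against a median of 0.11. Whether hexagons rich in Egr1 lay partly outside the nucleus was not tested. Fosl2 had the highest r of the members with the summed SCN neuron markers, 0.45, and 0.35 without the low-depth libraries. The genes most like Egr1 were Arhgap26, Ogfrl1 and Ppig (0.43 to 0.46), and none of them was among its first 3 without the low-depth libraries.

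Adjacent hexagons were compared by the r of each hexagon with the mean of its 2 nearest hexagons in the section, a median of 133 units away, with section means removed. Over 8171 genes the median of this r was -0.13, and the members are read against that value. Junb was the member most alike in neighbours, with 0.28, above 99.2% of genes, and 0.23 to 0.29 under the 4 alternatives. This rank rests on few counts: Junb had 329 in all, none in 19 hexagons and 10 or more in only 10. Its mean of 5.59 CPM lies below the 20 CPM required of the 8171 genes, so genes of unlike depth are compared. Vip, the neuropeptide of the SCN core and a gene of known regional expression, stood at 0.40. Nr4a1 lay at the other end with -0.46, above 0.624% of genes, and -0.45 to -0.33 under the alternatives, so that hexagons rich in Nr4a1 tended to lie beside hexagons poorer in it. Fos stood at -0.32 and the median of the 10 genes at -0.05.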

How the data were processed

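The deposited count table, made by the authors, holds whole-number counts of reads per gene for 82 libraries. The deposited RPKM table, also by the authors, holds reads per gene scaled to gene length and library total, and was used only for levels between genes. The submitters' processing notes name STAR, bcl2fastq 2 and GRCm38; how reads were counted, on which strand and with which gene models is not given in the sources used here.

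Members and lists were chosen with earlier results of these data known. Genes reaching 10 counts in at least 10 libraries (in at least 4 sections for section sums) were tested with edgeR 4.0.16 (quasi-likelihood, TMM, robust; R 4.3.3), in a model of section plus the dorsal-ventral and medial-lateral coordinates, with Benjamini-Hochberg adjustment over all tested genes at 0.05. Section 9, with 1 hexagon, carries no weight in slopes and was left out of section sums. A slope's standard error is its size over the square root of F; it was not given for Junb on the dorsal-ventral axis, where edgeR's Poisson bound set the p-value. CPM uses TMM-adjusted library sizes. DESeq2 1.42.0, other scalings, no filter, depth, library set and left-out sections were the alternatives. Leaving out replicate 13 of section 7 was chosen after seeing the data. Named genes were all 10 members, at most 4 called genes per further list and axis, and the 3 genes most alike per member. The fits were tested on simulated data. Limits for counts of 0 cover counting error only, while the intervals of slopes cover the spread between hexagons or section sums. A gene of the signalling list is not reported here.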

Additional observations from a re-analysis of the deposited data

Results flagged for a closer look

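In groups of 4 to 10 hexagons (sections 1, 2 and 8), 28 sets of CPM values were examined for a sample far from the others, and 4 had one. For normally distributed values chance gives about 1 in 20 such sets. CPM from few counts with many zeros need not keep that rate, which was not estimated here. Egr1 reached 117 CPM in replicate 3 of section 1 (50 counts), where the next hexagon had 17.9 CPM. Jun reached 66.1 CPM in replicate 4 of section 2 (44 counts), next to 25.4 CPM. Ier2 reached 12.3 CPM in replicate 4 of section 1, which is 5 counts, next to 2.56 CPM. Fosb stood at 2.29 CPM in replicate 4 of section 8, which is 1 count, with 0 in the other 5 hexagons, a set that is always flagged.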

How the results depend on the processing

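No paired analysis was possible because the replicate numbers only follow the accession order. Of 875 member values under alternatives, 861 kept their side of the threshold and, for slopes, their direction. The tests over 5 position terms, between sections and between library sets have no direction. No member passed in a main fit, so staying above 0.05 is a weak check. Without section 8 the number of members called on the anterior-posterior axis was 1 (Nr4a1) and without any other section 0. Without the filter on low counts it was 1 (Fosb) over 5 position terms and 1 (Fosb) between sections. In all other fits it was 0. Uncalled slopes changed sign for Btg2 (medial-lateral -0.087) and Junb (medial-lateral 0.042) with library set as a further factor, and for Btg2 (0.33), Egr1 (0.50) and Fosl2 (-0.047) on the anterior-posterior axis with the mean coordinates of the section as covariates. With sections left out in turn, the medial-lateral slope of Btg2 ran from -0.046 to 0.12, the dorsal-ventral slope of Dusp1 from -0.095 to 0.0093, and the anterior-posterior slopes of Btg2 from -0.18 to 0.012 and of Egr1 from -0.58 to 0.038; the cause was not tested. The median r of the 45 pairs was 0.080 as Spearman's rho, against 0.047 over all pairs. It was 0.075 with genes detected and total counts removed, against 0.0042 over all pairs. With a pseudocount of 10 it was 0.082, against 0.097 over all pairs. With a section left out it was 0.10 to 0.16, against 0.017 to 0.19 over all pairs. Whether the members lay above or below all pairs thus depended on the setting. Counts over all genes moved more. DESeq2 called 154, 353, 460, 392, 909 and 9 genes on the dorsal-ventral, medial-lateral and anterior-posterior axes, over 5 position terms, between sections and between library sets, in place of 91, 158, 30, 233, 470 and 3. Without the filter they were 799, 912, 106, 3538, 4639 and 72. Adding library set as a factor left 14 genes called on the medial-lateral axis, 140 over 5 position terms and 0 between sections. On the anterior-posterior axis 337 were called with hexagons as units, 0 with the mean coordinates and 1 to 73 with a section left out. Leaving out a section gave at least 44 and at most 137 genes on the dorsal-ventral axis, at least 31 on the medial-lateral axis (without section 7), at least 81 over 5 position terms (without section 6) and at least 286 between sections (without section 6), and between library sets 0 without section 4, 5, 6, 7 or 8 and 1 without the low-depth libraries. Depth limits Fosb, Junb and Ier2 most, which had 187, 329 and 433 counts in all.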

Other observations

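The 10 members were set beside 33 further immediate early genes and SCN peptides in the 76 hexagons without low-depth libraries, with section means removed. Of the 330 pairs, 207 had a positive r and 123 a negative one, with a median of 0.057. Over all pairs of the 8171 genes in the same hexagons the median was 0.016, with a 5th percentile of -0.22 and a 95th of 0.28. The share of all pairs beyond 0.3 or -0.3 was not counted. Of the 330 pairs, 46 had an r above 0.3 and 8 one below -0.3, and the examples below come from both ends. The lowest were Fosb with Cck (-0.42), Btg2 with Rgs2, a regulator of G protein signalling (-0.41), Egr1 with Prok2 (-0.38) and Btg2 with Rhob, a small GTPase (-0.34). Fos had an r of 0.46 with Nr4a3, 0.43 with Gem, a small GTPase induced by calcium, and 0.45 with Nms, the peptide neuromedin S of SCN pacemaker neurons. Fosl2 had an r of 0.46 with Nr4a3, 0.40 with Sik1 and 0.49 with Prok2, a peptide of SCN output, and the third most like gene of Fosl2 there was Rorb, a nuclear receptor of the SCN (0.58). Ier2 had an r of 0.44 with Avp, 0.43 with Sik1 and 0.38 with Ier5, a related immediate early gene. Btg2 had an r of 0.41 with Gadd45g, a stress-inducible growth regulator. Dusp1 had an r of 0.56 with Sik1 and 0.54 with Plk2. Sik1 had an r of 0.4 or more with 4 members and of -0.33 with Fosb. These values are descriptions over hexagons that share libraries and depth.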
